A study of Mus musculus with 2 samples.

Results

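The integrin and laminin chain genes are the probe sets whose only gene symbol in the platform annotation begins with Itga, Itgb, Lama, Lamb or Lamc and goes on with 1 or 2 further letters or digits. The rule found 77 probe sets of 36 genes, among 34945 probe sets of 18193 genes that carry a single symbol. The 36 genes are 25 integrin chains, 10 laminin chains and Itgbl1, an integrin-like protein that is not a receptor chain. Adipose tissue of C57BL/6 mice, an inbred strain, was measured on 2 Affymetrix arrays. The normal diet array held RNA pooled from 3 mice fed CE-2, and the high fat diet array held RNA pooled from 3 mice fed HFD32 to make them obese. Both diets ran from 6 to 18 weeks of age, and neither group is described as carrying an engineered allele. The sources used here name neither the fat depot nor the sex. With 1 array per diet there was no replicate and no test, so every value below describes these 2 pools.

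Integrins are receptors made of an alpha and a beta chain that span the cell membrane. They bind matrix proteins or receptors on other cells outside the cell and connect to the actin cytoskeleton inside it. Leukocytes carry a set of their own, built on the beta chains encoded by Itgb2 and Itgb7, while most other cells hold on to collagen, laminin and fibronectin through alpha chains paired with Itgb1. Laminins are trimers of an alpha, a beta and a gamma chain that form the basement membrane, the matrix sheet that wraps each fat cell and each small vessel. In obese fat, leukocytes enter the tissue and the matrix around the fat cells is remodelled.

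Sequences upstream of the gene start are shown for Itgam and Itgax, leukocyte integrin genes that neighbour each other on chromosome 7 and were both higher on the high fat diet array, and for Lamb3, the laminin chain with the largest difference. Each is the 250 bases before the start in RefSeq's GRCm38.p6 table, 5′ to 3′ on the gene's strand. Capitals mark the core motif of PU.1, a myeloid transcription factor, on either strand (GAGGAA or TTCCTC).

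Itgam, chr7:128062390-128062639, plus strand: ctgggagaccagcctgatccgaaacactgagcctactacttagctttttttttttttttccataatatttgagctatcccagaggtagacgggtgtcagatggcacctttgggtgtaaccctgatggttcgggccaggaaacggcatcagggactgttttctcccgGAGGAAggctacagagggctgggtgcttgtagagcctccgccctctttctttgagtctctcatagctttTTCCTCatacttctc

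Itgax, chr7:128129300-128129549, plus strand: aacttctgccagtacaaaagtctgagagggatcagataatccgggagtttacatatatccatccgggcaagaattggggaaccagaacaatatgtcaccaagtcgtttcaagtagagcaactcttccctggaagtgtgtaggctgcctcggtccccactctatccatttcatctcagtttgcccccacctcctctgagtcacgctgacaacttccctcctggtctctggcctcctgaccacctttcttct

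Lamb3, chr1:193301744-193301993, plus strand: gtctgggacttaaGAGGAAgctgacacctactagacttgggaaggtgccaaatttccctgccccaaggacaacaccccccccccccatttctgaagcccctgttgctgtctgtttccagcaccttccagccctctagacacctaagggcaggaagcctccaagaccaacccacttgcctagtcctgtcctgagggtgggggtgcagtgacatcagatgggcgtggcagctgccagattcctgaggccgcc

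The Itgam window held the PU.1 core from 84 to 79 bases and, on the opposite strand, from 15 to 10 bases before the start. The Itgax window held neither it nor the core of the RUNX factors (TGTGGT or ACCACA). Lamb3 has a second start in the table, whose window held neither core, and the window printed held the PU.1 core from 237 to 232 bases before the start. Of the 36 genes, 24 had a window, and Lamb3, Itgb6 and Itga3 had more than 1. The counts that follow are of windows, not genes. They are matches of letters, and binding was not measured. The PU.1 core was in 2 of 5 windows of leukocyte integrins, in 6 of 15 of matrix-binding integrins and in 5 of 6 of laminin chains, against 23.3% of all 32851 windows of this length. The RUNX core was in 1, 1 and 0 of the same windows, against 14.0% of all. The only leukocyte integrin with the RUNX core was Itga4, from 60 to 55 bases before the start. In Itga3 both cores shared 1 base, at 68 bases before the start.

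Levels are log2 signals, and a difference is the high fat diet level minus the normal diet level, so that 1 is a 2-fold ratio. A gene was represented by its brightest probe set, the one with the highest mean of both arrays, and counted as above the floor if that mean was at least 5.44, the median of all probe sets. Background was the 95th percentile of 83 probe sets of sensory receptor genes, 4.92 on the normal diet and 4.95 on the high fat diet array. Where 1 array lay under it, the ratio is a bound against it. The only error at hand was the SD of 0.27 between the differences of probe sets of 1 gene, over 5131 genes, and 0.22 over the 11 members with several probe sets above the floor. It covers probes, not animals. Over 11778 genes above the floor the median difference was 0, with quartiles at -0.23 and 0.23. The adipocyte markers Adipoq and Fabp4 had levels of 14.21 and 14.24 on the normal diet array and 14.12 and 14.21 on the high fat diet array, near the top of the scale. Both arrays also carried transcripts of other tissues. Hepatocyte markers were lower after the high fat diet in all 10 cases (median -5.30). Pancreas markers were at least 2-fold lower in 6 of 7 cases (median -3.00), and Cela1 (0.95) was the exception. By contrast, 5 of 6 epididymis markers were at least 2-fold higher.

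Of the 36 genes, 26 lay above the floor. After the high fat diet, 6 of the 26 stood higher by 2-fold or more, where 3.28% of all 11778 genes did. None of the 26 stood lower by that much, where 3.29% of all genes did. At 1.5-fold the same 6 were higher and Lamb2 alone was lower, where 8.2% and 8.52% of all genes were. The 6 genes were Itgax, Lamb3, Itgb2, Itgam, Itga7 and Itga5. Of these, Lamb3 (4.77 and 6.74) passed the floor only through its high fat diet level. With no floor, where 2.63% and 3.06% of all genes lay past 2-fold in each direction, 6 of the 36 were higher and 1, Itga8, was lower. The high fat diet level of Itga8 lay under background, which bounds its ratio at only 1.54-fold lower or more. The plot of levels on both arrays shows every gene.

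**Figure D1:**
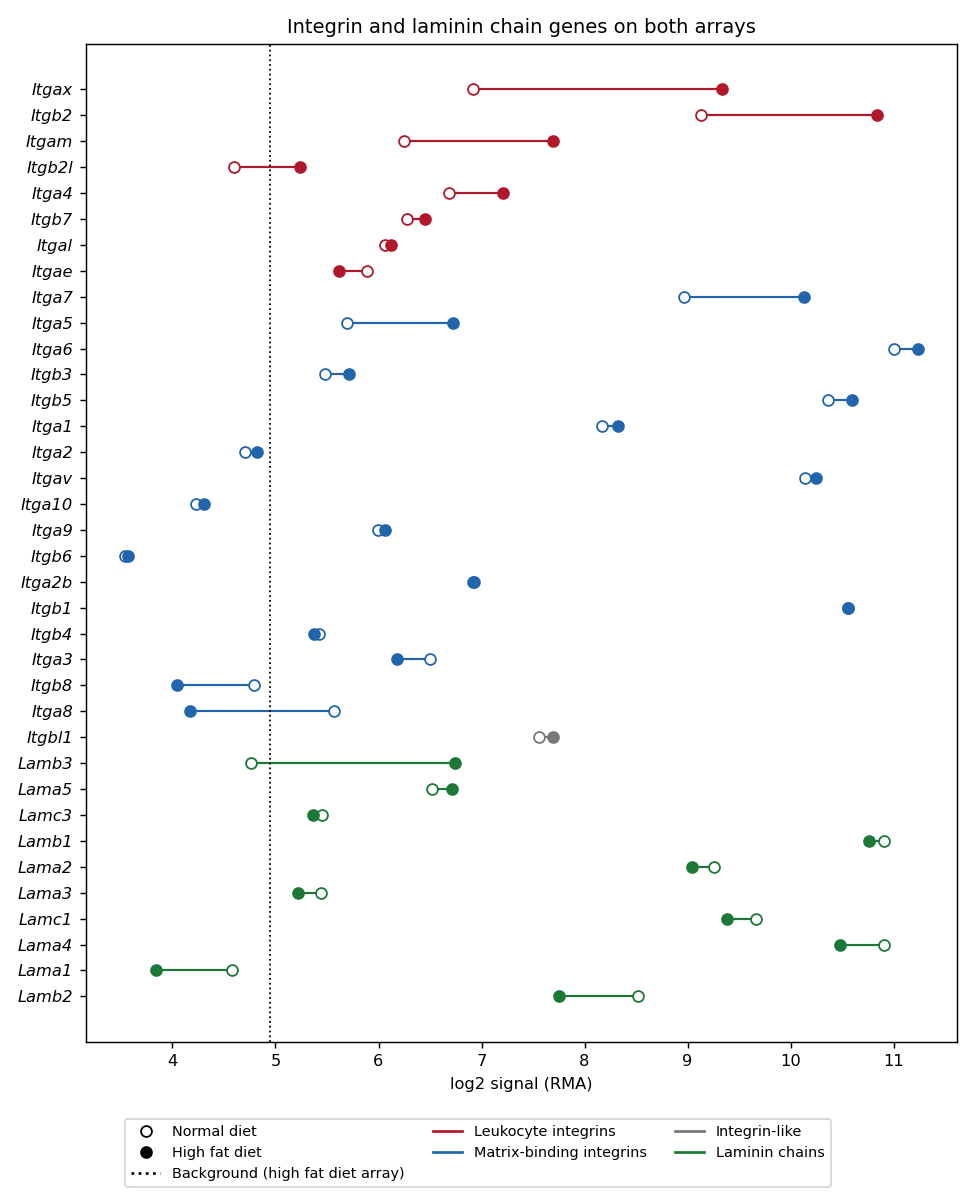
Log2 signal of the brightest probe set of each of the 36 genes on the normal diet array (open circles) and the high fat diet array (filled circles), coloured by class, with the background of the high fat diet array (4.95) dotted; levels of different genes cannot be compared. Itgax, Itgb2, Itgam, Itga7, Itga5 and Lamb3 show the longest shifts to the right, and Itga8 the longest to the left.

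Among leukocyte integrins the largest differences were those of Itgax, Itgb2 and Itgam. Itgb2, the beta chain CD18 shared by this family (probe set 1450678_at), had levels of 9.13 after the normal and 10.84 after the high fat diet, 3.27-fold higher. Itgax, the alpha chain CD11c of activated macrophages and dendritic cells (1419128_at), had 6.92 and 9.33, 5.35-fold higher. Only 44 of the 11778 genes had a larger difference than Itgax, and 116 had a larger one than Itgb2. Itgam, the alpha chain CD11b of monocytes, macrophages and neutrophils (1422046_at), had 6.25 and 7.69, 2.72-fold higher. Each of these 3 genes has a single probe set, so no other probe set checks it.

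Another alpha chain of the same family stood apart from Itgax and Itgam. Itgal, or CD11a, had 6.06 and 6.12, a difference of 0.06, and its other probe set lay under background. Itgal pairs with the same Itgb2 chain, whose difference was 1.71. Its difference lay within the SD of 0.27 between probe sets, and those of Itgax and Itgam were several times that SD. Itgad was not analysed here. Itgb2l, a relative of Itgb2, lay below the floor, with 4.60 under background and 5.24, which gives a bound of at least 1.24-fold higher.

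Itga4, which binds VCAM1 and fibronectin and helps leukocytes leave vessels, had 6.69 and 7.20, 1.43-fold higher. A second probe set above the floor, at 5.55 and 6.35, gave 0.81. The other 3 lay under background on 1 or both arrays and give no check. Itgb7, the beta chain of gut-homing and intraepithelial lymphocytes, had 6.28 and 6.45, a difference of 0.18. Itgae, or CD103, the alpha chain that holds lymphocytes to E-cadherin, had 5.89 and 5.62, a difference of -0.28, and its other probe set lay under background. The differences of Itgb7 and Itgae were no larger than about 1 SD between probe sets.

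As a class, 7 of 8 measured leukocyte integrin genes lay above the floor. Of these, 6 were higher and 1 lower, where 49.9% of all genes were higher, and the median was 0.52 against 0 over all genes. With no floor the median over 8 genes was 0.58, and it was 0.81 over 6 genes with Itga4 counted as matrix-binding. It was 1.58 over 4 genes with the median over all probe sets of a gene and 2.06 over 2 genes with the floor at the 75th percentile. That floor was 7.60, and Itgax (6.92 and 9.33) passed it only through its high fat diet level. The values fell into a group of 3 from 1.44 to 2.42 and a group of 4 from -0.28 to 0.52, so the median describes neither.

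Macrophage markers moved with the first group. Of 15 such markers 14 were higher, 6 of them past 2-fold. Their median was 0.69, and their summed signal (levels taken back to the linear scale) went from 19992 to 36018.5. None lay under background on either array. Cd68 was 4.91-fold and Adgre1 3.13-fold higher, while Mertk had -0.40. Of 6 T and NK cell markers 1 was higher and 5 were lower (median -0.12), with summed signals of 644.7 and 594.3. B and plasma cell markers were lower in 4 of 4 genes, with summed signals of 532.7 and 393.6. Of 8 neutrophil markers 2 lay above the floor, S100a8, which was 4.30-fold higher, and S100a9, at least 2.80-fold lower, and 2 of the 8 were under background on the normal diet and 4 on the high fat diet array. The part of these cells in the integrin differences was not tested, and in such bulk tissue more cells of a type and more RNA per cell cannot be told apart.

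The receptors that leukocyte integrins bind on other cells stood otherwise. Of 10 counter-receptor genes 7 lay above the floor, 2 higher and 5 lower, with a median of -0.37. Icam1 and Icam2, ligands of Itgb2 integrins on vessels, differed by 0.21 and -0.26. Vcam1, the ligand of Itga4, differed by 0.35. The junction proteins Jam2 (-0.62) and F11r (-0.51) were lower. Cdh1, which encodes E-cadherin, the ligand of Itgae, had 6.52 and 4.48, at least 2.97-fold lower. Endothelial markers were lower beside them in 10 of 10 genes, with a median of -0.53 and summed signals of 4753 and 3382, and epithelium markers, a list that holds Cdh1 itself, had a median of -1.41 over 7 genes. Their part in these values was not tested.

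Matrix-binding integrins mostly differed little. Of 17 measured genes 11 lay above the floor, 10 higher and 1 lower, where 49.9% of all genes were higher, with a median of 0.16. With no floor 13 of 17 were higher, where 9626 of the 18157 other genes were, with a median of 0.08. Above the floor, 8 of the 11 had a positive difference of at most 0.23, under the SD between probe sets. Itgb1, the beta chain most of them share, had 10.55 and 10.56, a difference of 0.003, and its 2 other probe sets above the floor gave 0.05 and 0.01. Itgb1 thus had nearly the same level on both arrays, while Itgb2 differed by 1.71. The gap between the medians of leukocyte and matrix-binding integrins was 0.36. It was 0.62 with Itga4 counted as matrix-binding and 1.44 with the median over all probe sets of a gene. With the floor at the 75th percentile, which Itgax passed only through its high fat diet level, the gap was 1.87. Under the median over all probe sets Itgal, Itgae and Itga4 fell below the floor. At the 75th percentile only Itgax and Itgb2 were left of the leukocyte integrins. The size of the gap thus rests on which genes enter and is not settled.

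Integrins that bind the RGD sequence of fibronectin and vitronectin include Itgav, Itgb3 and Itgb5. Itgav had 10.14 and 10.24, a difference of 0.10, with 0.61 on the other of its probe sets above the floor. Itgb5, a partner of Itgav in a vitronectin receptor, had 10.37 and 10.59, and its 4 probe sets gave 0.13 to 0.30. Itgb3, a partner of Itgav in osteoclasts and vessels and of Itga2b in platelets, had 5.48 and 5.71. Itga2b, the platelet fibrinogen receptor chain, had 6.92 and 6.93, a difference of 0.02. All these differences but the second probe set of Itgav were close to or under the SD between probe sets.

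Itga5, the alpha chain of the main fibronectin receptor (1423267_s_at), had 5.69 and 6.73, 2.05-fold higher. The suffix of that probe set marks a match to several transcripts. The other 3 probe sets of Itga5 lay under background on both arrays, with -0.30, 0.24 and 0.23, so they give no ratio. Without such probe sets Itga5 fell below the floor and had no value. Itga9, which binds tenascin and VCAM1, had 5.99 and 6.06. Itga8, an alpha chain of smooth muscle and other contractile cells, had 5.57 and 4.17, the latter under background, at least 1.54-fold lower. Smooth muscle and pericyte markers were lower beside it in 9 of 10 genes, 5 of them at least 2-fold, with Cnn1 at -3.54 and Myh11 at -3.25 and summed signals of 17655 and 9110. Their part in the value of Itga8 was not tested.

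Laminin-binding integrins differed among themselves. Itga7, a laminin receptor chain known best from muscle (1418393_a_at), had 8.96 and 10.13, 2.24-fold higher, with 278 genes above it. It has 1 probe set, whose suffix (_a_at) marks several transcripts, which can be of 1 gene. Skeletal muscle markers stood the other way, with 9 of 10 lower, 6 of them past 2-fold, their median at -1.59 and summed signals of 6118 and 3058. Ryr1 (0.89) was the exception among these markers, as Synpo2 (1.48) was among those of smooth muscle, and both are named because they share the direction of Itga7. The part of muscle in the value of Itga7 was not tested. Itga6, a laminin receptor of epithelium and vessels, reached 11.23 on the high fat diet array, 1.17-fold higher, and its other probe set went from 9.79 to 10.21. Itga3, of epithelium, had 6.50 and 6.18, a difference of -0.32, against 0.04 on its other probe set above the floor. Itgb4, the partner of Itga6 in epithelium, lay just below the floor with 5.43 and 5.37.

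Of the collagen-binding alpha chains 1 was above background. Itga1, of vessels and mesenchymal cells, had 8.17 and 8.33, a difference of 0.16, while its other probe set gave -0.51, so its direction rests on the probe set. Itga2 and Itga10 lay under background on both arrays, as did Itgb6 and Itgb8, which activate TGF beta together with Itgav. Itga11 was not analysed here. Itgbl1, a secreted protein related to beta chains, had 7.56 and 7.70. The plot of all probe sets shows where those of a gene disagree.

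**Figure D2:**
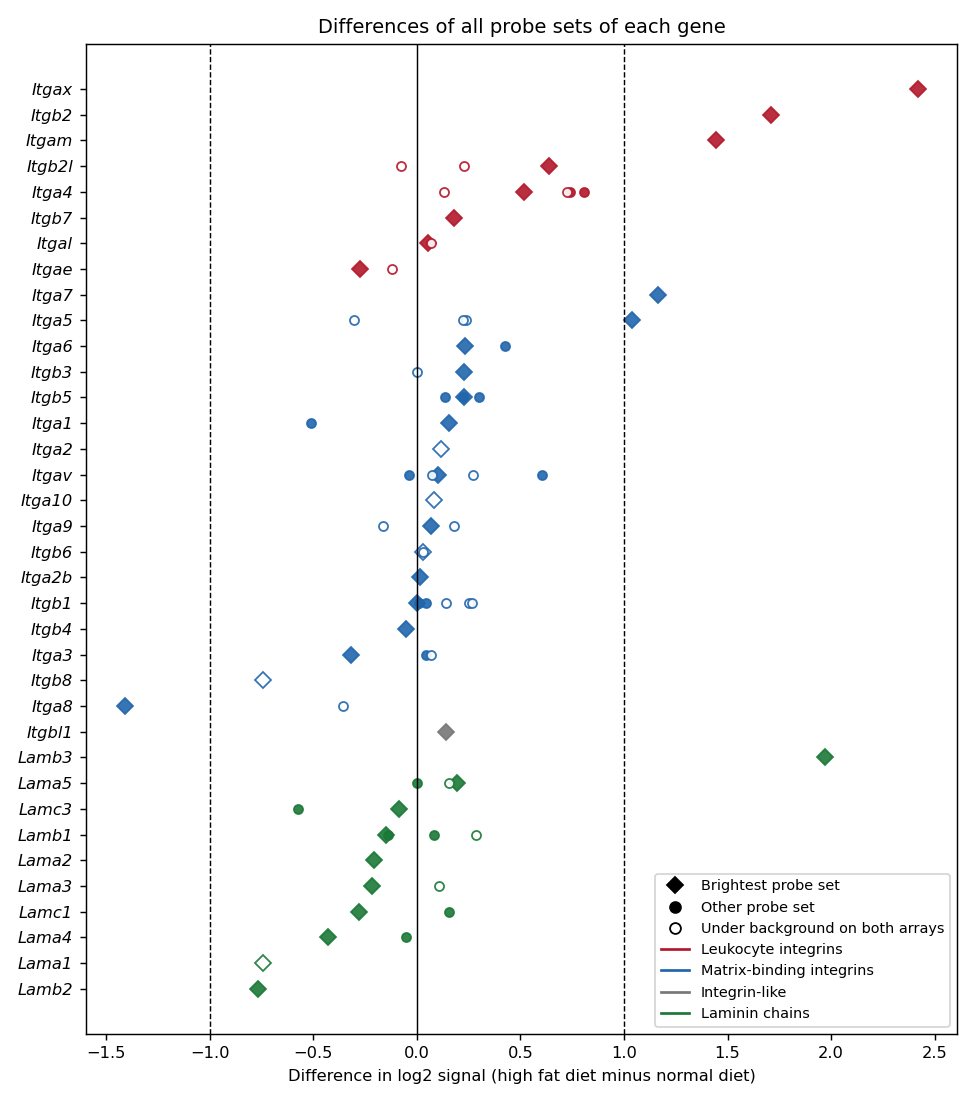
Difference in log2 signal (high fat diet minus normal diet) of all 77 probe sets, by gene and coloured by class; diamonds are the brightest probe set of a gene, circles its others, open symbols lie under background on both arrays, and dashed lines mark 2-fold. Itgax, Itgb2, Itgam, Itga7 and Lamb3 rest on 1 probe set each. Among probe sets above the floor, those of Itga1, Itga3, Lamb1 and Lamc1 lie on both sides of 0, and dimmer ones of other genes do so too.

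Pairs of chains that join in 1 receptor were set side by side. In the pairs of Itgb2, the beta chain differed by 1.71 and its alpha chains by 2.42 (Itgax), 1.44 (Itgam) and 0.06 (Itgal). In the pairs of Itgb7, the beta chain differed by 0.18 and its alpha chains by 0.52 (Itga4) and -0.28 (Itgae). The Itgb1 chain differed by 0.003 while its alpha chains above the floor ran from -0.32 (Itga3) to 1.17 (Itga7). These are RNA signals of single chains and do not measure assembled receptors.

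**Figure D3:**
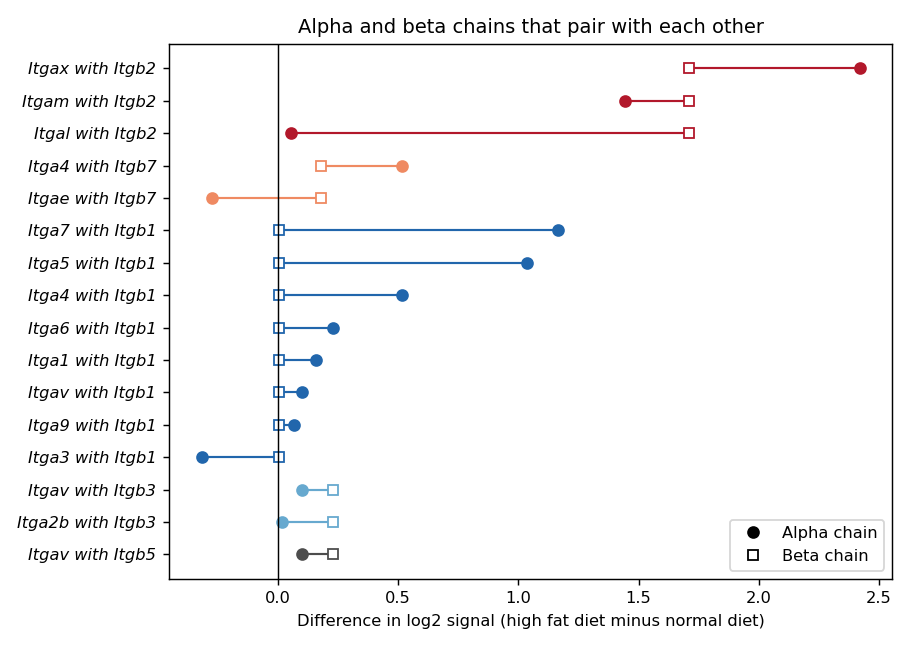
Difference in log2 signal (high fat diet minus normal diet) of alpha chains (filled circles) and beta chains (open squares) for known integrin pairs with both genes above the floor, coloured by beta chain. The Itgb2 square lies at 1.71 and the Itgb1 square at 0.003, with Itga7 (1.17) and Itga5 (1.04) farthest from their partner among the Itgb1 pairs.

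Inside the cell, adaptor proteins link integrins to actin and switch them on. Of 22 measured genes of such proteins and of integrin-associated tetraspanins 21 lay above the floor, 11 higher and 10 lower, with a median of 0.03. Fermt3, the kindlin of blood cells that activates Itgb2 integrins, had 8.67 and 9.71, 2.07-fold higher, and was the only one past 2-fold. Parvb (0.66), a parvin, and Ptk2b (0.61), a kinase of the focal adhesion family found in macrophages, followed, while Lims2 had -0.38. Fermt2, the kindlin of other cells, had -0.32, with levels of 11.50 and 11.18. Tln1, talin, which binds the tails of beta chains, differed by 0.20 and Vcl, vinculin, by -0.08.

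The matrix proteins that integrins bind split into groups. Of 15 measured genes 14 lay above the floor, 10 higher and 4 lower, and their median (0.39) and mean (-0.99) had opposite signs. The 4 lower genes were all at least 2-fold lower and are made mainly in liver. Fibrinogen chains Fga, Fgb and Fgg, ligands of Itgam, Itgax and the platelet integrin, had bounds of 24.9-fold, 13.8-fold and 32.3-fold lower, and vitronectin, Vtn, was 4.83-fold lower. Tnc, tenascin C, a ligand of Itga9, had 5.54 and 6.75, 2.30-fold higher. Col6a2 (0.90) and Col6a3 (0.73), of the collagen around fat cells, were higher, and fibronectin, Fn1, differed by 0.29. The hepatocyte markers moved with the lower genes, with summed signals of 25964 and 664.2, and their part was not tested.

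Laminin chains were mostly slightly lower after the high fat diet, and Lamb3 stood against them. Of 10 measured genes 7 lay above the floor, 2 higher and 5 lower, where 49.3% of all genes were lower, and the median was -0.21. With no floor 8 of 10 were lower, where 8078 of the 18157 other genes were, also with a median of -0.21. The median was -0.06 when all probe sets of a gene were summarised by their median and -0.13 with each array centred on its median, so its size rests on the processing. Of 12 probe sets of these genes above the floor, 4 were higher and 7 lower. At 2-fold 1 of the 7 genes, Lamb3, was higher and 0 were lower, where 3.28% and 3.29% of all genes were.

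Among the alpha chains, which carry the integrin binding sites, Lama4, the chain of vessel and fat cell basement membranes, had 10.91 and 10.48, 1.34-fold lower. Its other probe set gave -0.05. Lama2, the chain of muscle, nerve and mesenchyme, had 9.25 and 9.05, a difference of -0.21. Lama5, found in vessels and epithelium, had 6.52 and 6.71, a difference of 0.20, and exactly the same value on both arrays, 5.64, on another probe set. Lama3, an epithelial chain, lay below the floor with 5.44 and 5.22, and Lama1, an embryonic chain, was under background on both arrays. The differences of Lama2 and Lama5 were under the SD between probe sets.

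Among the beta chains, Lamb2, of vessel walls, muscle and the kidney filter, had 8.52 and 7.75, 1.70-fold lower, and 637 genes lay lower. It has 1 probe set. Lamb1, the more general beta chain, had 10.91 and 10.76, and its 3 probe sets above the floor gave -0.15, -0.14 and 0.08. Among the gamma chains, Lamc1, shared by most laminins, had 9.66 and 9.39, a difference of -0.28, but 0.16 on its other probe set. Lamc3 lay just below the floor with 5.45 and 5.36. In the trimer of Lama4, Lamb2 and Lamc1 all 3 chains were lower on their brightest probe set, by differences of -0.43, -0.77 and -0.28. The same was so with Lamb1 (-0.15) in place of Lamb2, and with Lama2 (-0.21) in place of Lama4 beside either beta chain. It was not so with Lama5 (0.20) as the alpha chain. Endothelial markers had a median of -0.53 and smooth muscle and pericyte markers -0.97 beside these chains, and the part of these cells was not tested.

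Lamb3, the beta chain of the laminin that anchors epithelium (1417812_a_at), had 4.77 after the normal diet, under background, and 6.74 after the high fat diet, at least 3.52-fold higher. It has 1 probe set, whose suffix (_a_at) marks a match to several transcripts, which can be of 1 gene. Without such probe sets Lamb3 had no value. It passed the floor through its level on the high fat diet array alone. The alpha chain Lama3, a partner of it, lay below the floor with 5.44 and 5.22. The receptor chains for this laminin, Itga6 and Itga3, differed by 0.23 and -0.32, and Itgb4 lay below the floor. Epithelium markers were lower in 6 of 7 genes, 5 of them at least 2-fold, with summed signals of 1562 and 682.4, and Epcam (0.22) was the exception. Mesothelium markers, a list that shares Krt8, Krt18 and Krt19 with that of epithelium, were lower in 8 of 8. Epididymis markers were higher in 5 of 6 genes, with summed signals of 1259 and 2679, and 4 of the 6 lay under background on the normal diet and 0 on the high fat diet array. Gpx5 was 16.4-fold higher and Spink8, the exception, 6.00-fold lower. The part of these tissues in the Lamb3 signal was not tested.

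Other basement membrane genes went both ways. Of 16 genes, all above the floor, 6 were higher and 10 lower, with a median of -0.12. Col4a4 (-1.24), Col4a5 (-0.95) and Col4a6 (-0.80), the less common chains of type IV collagen, were lower, while Col4a2 (0.62), of the common form, was higher. Nid1, which joins laminin to type IV collagen, differed by -0.13, Hspg2, perlecan, by 0.48, and Dag1, a laminin receptor that is not an integrin, by -0.04. The plot by class sets these lists beside the markers.

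**Figure D4:**
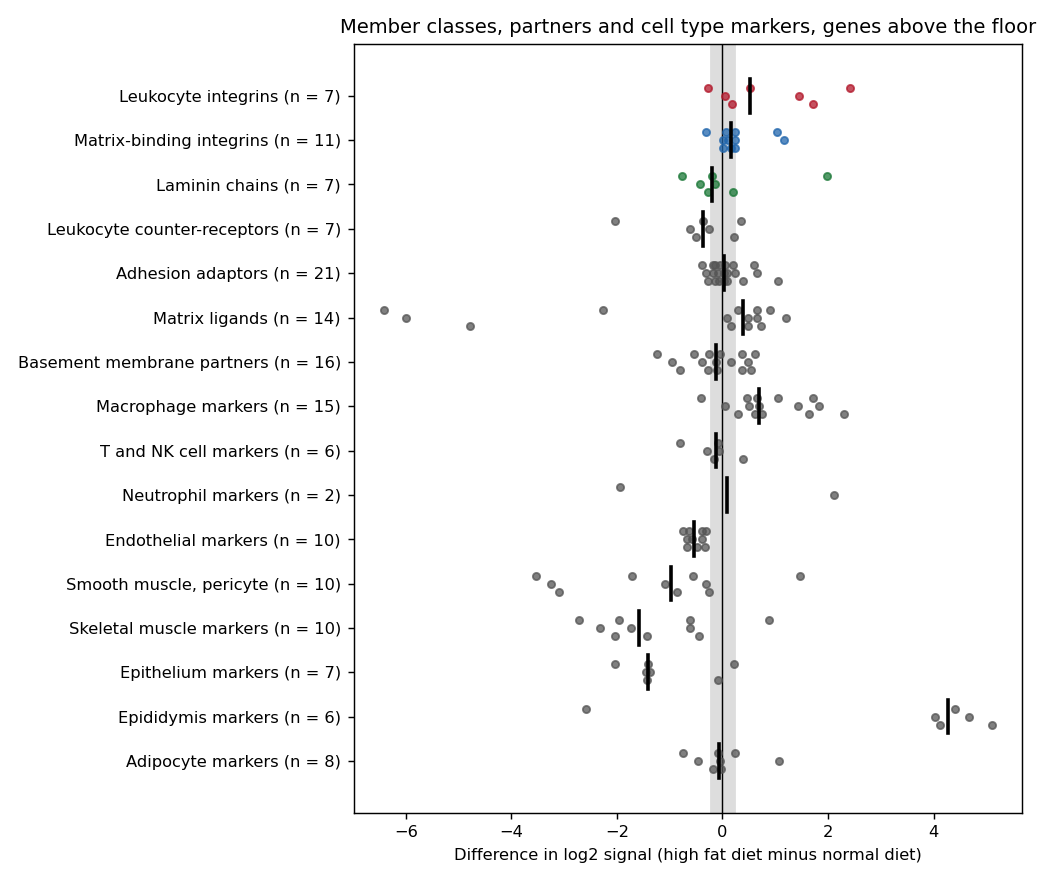
Difference in log2 signal (high fat diet minus normal diet) of each gene above the floor (points) in the member classes, lists of partner genes and cell type markers, with the median of each list as a black bar and the range between the quartiles of all 11778 genes (-0.23 to 0.23) shaded; differences are drawn as measured, also where 1 array lay under background. The medians are 0.52 for leukocyte integrins, 0.16 for matrix-binding integrins, -0.21 for laminin chains and 0.69 for macrophage markers.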

How the data were processed

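Affymetrix mouse arrays were read from the deposited table of log2 signals, which the authors made with RMA, per the submitters' processing notes. Its version is not given in those notes. RMA makes the distributions of both arrays nearly equal, which hides any change in total RNA, and compresses differences at both ends of the scale. The scanner files were not used. That the scale is log2 follows from the range of the values, 2.04 to 14.28. Each array held pooled RNA of 3 mice, so the spread between animals is unknown.

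Gene names came from GEO's annotation of the platform, which can be old, and the symbols of all 36 members were the same in RefSeq's table for GRCm38.p6. Computation used Python 3.11.15, pandas 2.3.3 and numpy 2.4.6, and was tested on simulated data. Every member is reported. Members below the floor get levels, unless both arrays lay under background, and a bound where 1 array did. Of each list of partners the text names up to 4 genes, the 3 farthest in the direction of the median and the 1 farthest the other way, with partners of the members past 2-fold. Other genes of these lists (Fermt2, Tln1, Vcl, Fn1, Vtn, Nid1, Hspg2, Dag1) and all cell type markers named were chosen after their values were seen. The members, classes and lists were chosen with earlier results of these data known. Alternatives covered the probe set, the floor, centring, background and the class of Itga4.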

Additional observations from a re-analysis of the deposited data

How the results depend on the processing

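With 1 array per diet no setting could be tested, and no paired analysis was possible because each diet has 1 array. A value is said to have moved when it shifted by more than the SD of 0.27 between probe sets, and a count when it shifted by over 1.5 times. The median of leukocyte integrins was 1.58 over 4 genes when all probe sets of a gene were summarised by their median, 2.06 over 2 genes with the floor at the 75th percentile, and 0.81 over 6 genes with Itga4 counted as matrix-binding. The gap to matrix-binding integrins was 1.44 and 1.87 under the first and second of these. Fewer genes enter in each case, and Itgax passed the floor at the 75th percentile only through its high fat diet level. The count of members at least 2-fold higher was 3 with the floor at the 75th percentile (14 members). It was also 3 once probe sets matching several transcripts were left out (23 members), which drops Itga5, Itga7 and Lamb3. The suffixes left out (_a_at, _s_at and _x_at) can mark transcripts of 1 gene, so this is no check of specificity. The count at least 2-fold lower was 1 with no floor (Itga8, with a bound against background of only 1.54-fold), and 1 at 1.5-fold (Lamb2). Of 159 values of single members under alternatives 157 moved by less than the SD. The exceptions were Itga1 (-0.18) and Itga3 (0.04) when all probe sets were summarised by their median, both with the other sign. Most of the 159 could not have moved by that much, so this count does not measure stability. A change of floor keeps the probe set of a gene, and the shift by centring is smaller than the SD. Centring each array on its median shifted all differences by 0.07. Signal near background limits what can be said of the 10 members below the floor.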
